A study of Mus musculus with 21 samples.

Results

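The P216L allele of mouse Etv6 was followed in megakaryocyte-erythroid progenitors (MEP), the bone marrow cells that give rise to red cells and to the megakaryocytes that shed platelets. Of the 21 RNA libraries of the series, 10 were from MEP. The 6 carrier libraries were 3 with P216L and 3 with S211I and P216L together (the double mutant), and the 4 non-carrier libraries were 2 of wild-type (WT) MEP and 2 with S211I. S211I was thus present in 3 of the 6 carriers and in 2 of the 4 non-carriers, and it entered the model as a second factor. The cells had been sorted from bone marrow by flow cytometry, and libraries were made with a low-input full-length cDNA kit (SMART-Seq v4). Sex, age, strain, zygosity and the way the alleles were made are not given in the labels, and nothing there says whether each library came from a separate mouse, so p-values measure the spread between these libraries, which may be technical. The genotype field writes P211I where the sample titles write S211I, and the title form is used here. The series' title concerns a germline ETV6 mutation held to create a nuclear export signal, and the comparison asks which transcripts differ in MEP that carry P216L.

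Etv6 is a transcription factor of the ETS family that represses transcription, binding DNA with a GGAA core and recruiting co-repressors such as NCoR, Sin3 and histone deacetylases. It acts in the nucleus, is needed for adult blood stem cells and for megakaryocyte maturation, and in humans inherited variants that leave it outside the nucleus cause low platelet counts with a predisposition to leukaemia. MEP leave the stem cell state under transcription factors such as Gata1 and Klf1 and divide quickly before they fill with haemoglobin or become polyploid. In bulk libraries, fewer cells of a type and less RNA per cell cannot be told apart.

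Both altered residues lie close together in the coding sequence, shown here to place the alleles. The reference sequence of codons 209 to 218 lies at chr6:134248432-134248461 on the plus strand of GRCm38, in exon 5 of 8 of the annotated transcript (GENCODE vM21). Capitals mark the serine codon altered in S211I (AGC) and the proline codon altered in P216L (CCA).
Etv6 codons 209 to 218: aacatgAGCcgccgcctctcgCCAgtggag

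The carrier libraries held 3387389 to 8667242 counts and the non-carriers 5347922 to 12130358, with 12914 to 15444 and 12723 to 15914 genes detected. All pairs of MEP libraries correlated at Pearson's r of 0.947 to 0.98 on log CPM (counts scaled to a common library size), and the biological coefficient of variation was 0.177. All 10 MEP markers, among them Gata1, Klf1, Epor and Car1, were detected in every MEP library, at a summed level of 20530 to 23090 CPM in carriers and 21830 to 24230 CPM in non-carriers. Stem cell markers summed to 11.9 to 45.7 CPM in carriers and 11.9 to 37.6 CPM in non-carriers, and neutrophil markers to 24.6 to 123 CPM in carriers and 2.42 to 81.0 CPM in non-carriers. The short sets of 4 or 5 lymphoid, basophil, monocyte or stromal markers each summed to under 50 CPM in every MEP library. The longer B lymphoid list reached 55.9 CPM and the longer monocyte and macrophage list 60.7 CPM, each in a carrier.

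Across both S211I backgrounds, no gene passed the test for P216L. edgeR's quasi-likelihood test called 0 of 10773 genes at a Benjamini-Hochberg adjusted p under 0.05, which is 0% of genes in either direction. The smallest adjusted p was 0.32. At an unadjusted p under 0.05 there were 303 genes higher in carriers (2.81% of genes) and 434 lower (4.03%), 737 in all (6.84%). DESeq2 called 5 genes, all lower in carriers (Mbd2, Anln, Camsap2, Eif4enif1 and Tspan15), limma voom called 0, and edgeR without the low-count filter called 27 genes, 6 higher and 21 lower. The middle 50% of genes had log2 fold changes between -0.13 and 0.13 around a median of 0.01, and 5546 genes (51.5%) lay above 0. The median standard error (SE) was 0.158, so the 95% interval of a typical gene reached 0.329 to either side on the log2 scale.

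Etv6 itself did not separate carriers from non-carriers. Its transcript stood at 24.9, 37.3 and 32.4 CPM in P216L MEP and 41.8, 29.0 and 31.6 CPM in the double mutant, against 23.4 and 32.7 CPM in WT and 46.7 and 35.7 CPM in S211I MEP. The groups overlapped, and the log2 fold change for P216L was -0.07 ± 0.17 (SE; edgeR adjusted p = 0.96), with a 95% interval of -0.42 to 0.29. The change of a codon is not visible in a count per gene, so these values do not check the genotypes.

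Mbd2 had the smallest p of all genes and lay lower in every carrier library. Mbd2 binds methylated CpG and brings the NuRD chromatin complex to it. It stood at 409, 381 and 373 CPM in P216L MEP and 210.4, 174 and 213 CPM in the double mutant, against 457 and 485 CPM in WT and 416 and 449 CPM in S211I MEP. All 6 carriers lay below all 4 non-carriers, and the double-mutant libraries were the lowest by a wide margin. The mean was 293 ± 105 CPM in carriers and 452 ± 28.6 CPM in non-carriers (SD, n = 6 and n = 4). The log2 fold change in the additive fit was -0.71 ± 0.13 (SE; edgeR adjusted p = 0.32). When the effect was instead taken as the mean of the effects with and without S211I, in a fit with 1 mean per genotype, it was -0.70 with an edgeR adjusted p of 0.00043, and without WT replicate 1 the additive value was -0.83 with an adjusted p of 0.032.

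The other 9 genes with the smallest p among those lower in carriers were Gm7334, Camsap2, Anln, Tspan15, Ppp4r2, Sh3tc2, Gab1, Eif4enif1 and Cyhr1, with edgeR adjusted p of 0.32 to 0.48. Camsap2, which binds the minus ends of microtubules, stood at 58.2, 60.1 and 42.5 CPM in P216L MEP and 54.8, 51.9 and 62.5 CPM in the double mutant, against 101.6 and 75.8 CPM in WT and 89.2 and 71.9 CPM in S211I MEP. Both carrier genotypes had like levels of Camsap2 and lay below both non-carrier genotypes, with a log2 fold change of -0.61 ± 0.13. Anln, the anillin scaffold of the cytokinetic ring, stood at 102.3, 102.2 and 87.7 CPM in P216L MEP and 93.1, 103 and 107 CPM in the double mutant, against 134 and 119 CPM in WT and 142 and 145 CPM in S211I MEP. Its groups did not overlap either, and the log2 fold change was -0.44 ± 0.10 with a 95% interval of -0.64 to -0.24. Eif4enif1, the 4E-T protein that carries the cap-binding factor eIF4E and represses translation, stood at 227.9, 211.4 and 210.5 CPM in P216L MEP and 207, 197 and 199 CPM in the double mutant, against 272 and 284 CPM in WT and 237 and 255 CPM in S211I MEP. Here too every carrier lay below every non-carrier, by a log2 fold change of -0.33 ± 0.08. Tspan15, a tetraspanin that partners the protease ADAM10, had the largest fold of the protein-coding genes in this group, at -1.13 ± 0.25. It averaged 14.6 ± 3.77 CPM in P216L and 16.9 ± 4.22 CPM in double-mutant MEP (SD, n = 3 each), against 45.6 ± 17.9 CPM in WT and 25.1 ± 7.98 CPM in S211I MEP (SD, n = 2 each). The lowest S211I library, at 19.4 CPM, lay below the highest double-mutant library, at 20.6 CPM. Gab1, a docking protein of cytokine receptors, averaged 27.7 ± 6.89 CPM in carriers and 46.3 ± 9.51 CPM in non-carriers (SD, n = 6 and n = 4). Ppp4r2, a regulatory subunit of protein phosphatase 4, averaged 73.3 ± 16.4 CPM in carriers and 108 ± 16.5 CPM in non-carriers (SD, n = 6 and n = 4).

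Gm7334, annotated as a transcribed pseudogene, was at 0 counts in all 6 carriers and in both WT libraries, and at 7.82 and 4.64 CPM in the S211I libraries. With 3 counts assumed over the summed carriers (0.0773 CPM), carriers were at least 30.5-fold lower than the mean of the non-carriers by pooled counts (2.36 CPM), a bound that rests on the S211I pair and covers counting error only. Reads of a pseudogene can be shared with its parent gene, so its level is uncertain.

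Among the 10 genes with the smallest p on the higher side, Hexa had the smallest. Hexa, the alpha subunit of lysosomal beta-hexosaminidase, stood at 42.0, 32.8 and 36.6 CPM in P216L MEP and 59.0, 68.3 and 52.4 CPM in the double mutant, against 17.5 and 32.6 CPM in WT and 27.8 and 33.4 CPM in S211I MEP. The lowest carrier lay within the range of the non-carriers, and the log2 fold change was 0.76 ± 0.17 (SE; edgeR adjusted p = 0.41). Ccnd1, the cyclin D1 that drives exit from G1 with CDK4 and CDK6, stood at 6.94, 5.39 and 3.57 CPM in P216L MEP and 14.3, 21.1 and 25.1 CPM in the double mutant, against 4.07 and 2.15 CPM in WT and 3.35 and 10.2 CPM in S211I MEP. The 3 double-mutant libraries were the highest, the P216L libraries overlapped the non-carriers, and the log2 fold change was 1.25 ± 0.33 (SE; edgeR adjusted p = 0.59).

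The other 8 genes named on the higher side, Rnpep, Lcmt1, Frrs1, Cmtm7, Ccdc181, Rps4l, Macroh2a1 and Enpp5, all had an edgeR adjusted p of 0.59. Lcmt1, which methylates the catalytic subunit of protein phosphatase 2A, stood at 32.6, 33.1 and 38.1 CPM in P216L MEP and 35.3, 29.6 and 33.8 CPM in the double mutant, against 23.7 and 27.0 CPM in WT and 21.4 and 19.97 CPM in S211I MEP. Every carrier lay above every non-carrier, with a log2 fold change of 0.55 ± 0.15. Macroh2a1, a histone H2A variant of silent chromatin, stood at 214, 215 and 249 CPM in P216L MEP and 213, 226 and 212 CPM in the double mutant, against 159 and 179.6 CPM in WT and 190.3 and 184 CPM in S211I MEP. It too did not overlap between groups, with the smallest fold of the 10, at 0.31 ± 0.09. Frrs1, a ferric reductase, averaged 69.5 ± 10.2 CPM in carriers and 49.6 ± 6.18 CPM in non-carriers (SD, n = 6 and n = 4). Rnpep, the aminopeptidase B that trims basic residues, averaged 56.5 ± 7.25 CPM in carriers and 38.9 ± 5.93 CPM in non-carriers (SD, n = 6 and n = 4). Ccdc181 and Enpp5 also did not overlap. Rps4l is annotated as a transcribed pseudogene, whose reads can be shared with a parent gene, so its 12.3 ± 4.35 CPM in carriers and 6.33 ± 2.70 CPM in non-carriers (SD, n = 6 and n = 4) are uncertain. In all, 5 of the 10 genes named on the higher side and 4 of the 10 on the lower side did not overlap between carriers and non-carriers. Among all genes tested, 78 did so on the higher side (0.724%) and 82 on the lower side (0.761%), 160 in all (1.49%); the named genes were picked by p, so their share follows from the choice.

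**Figure D1:**
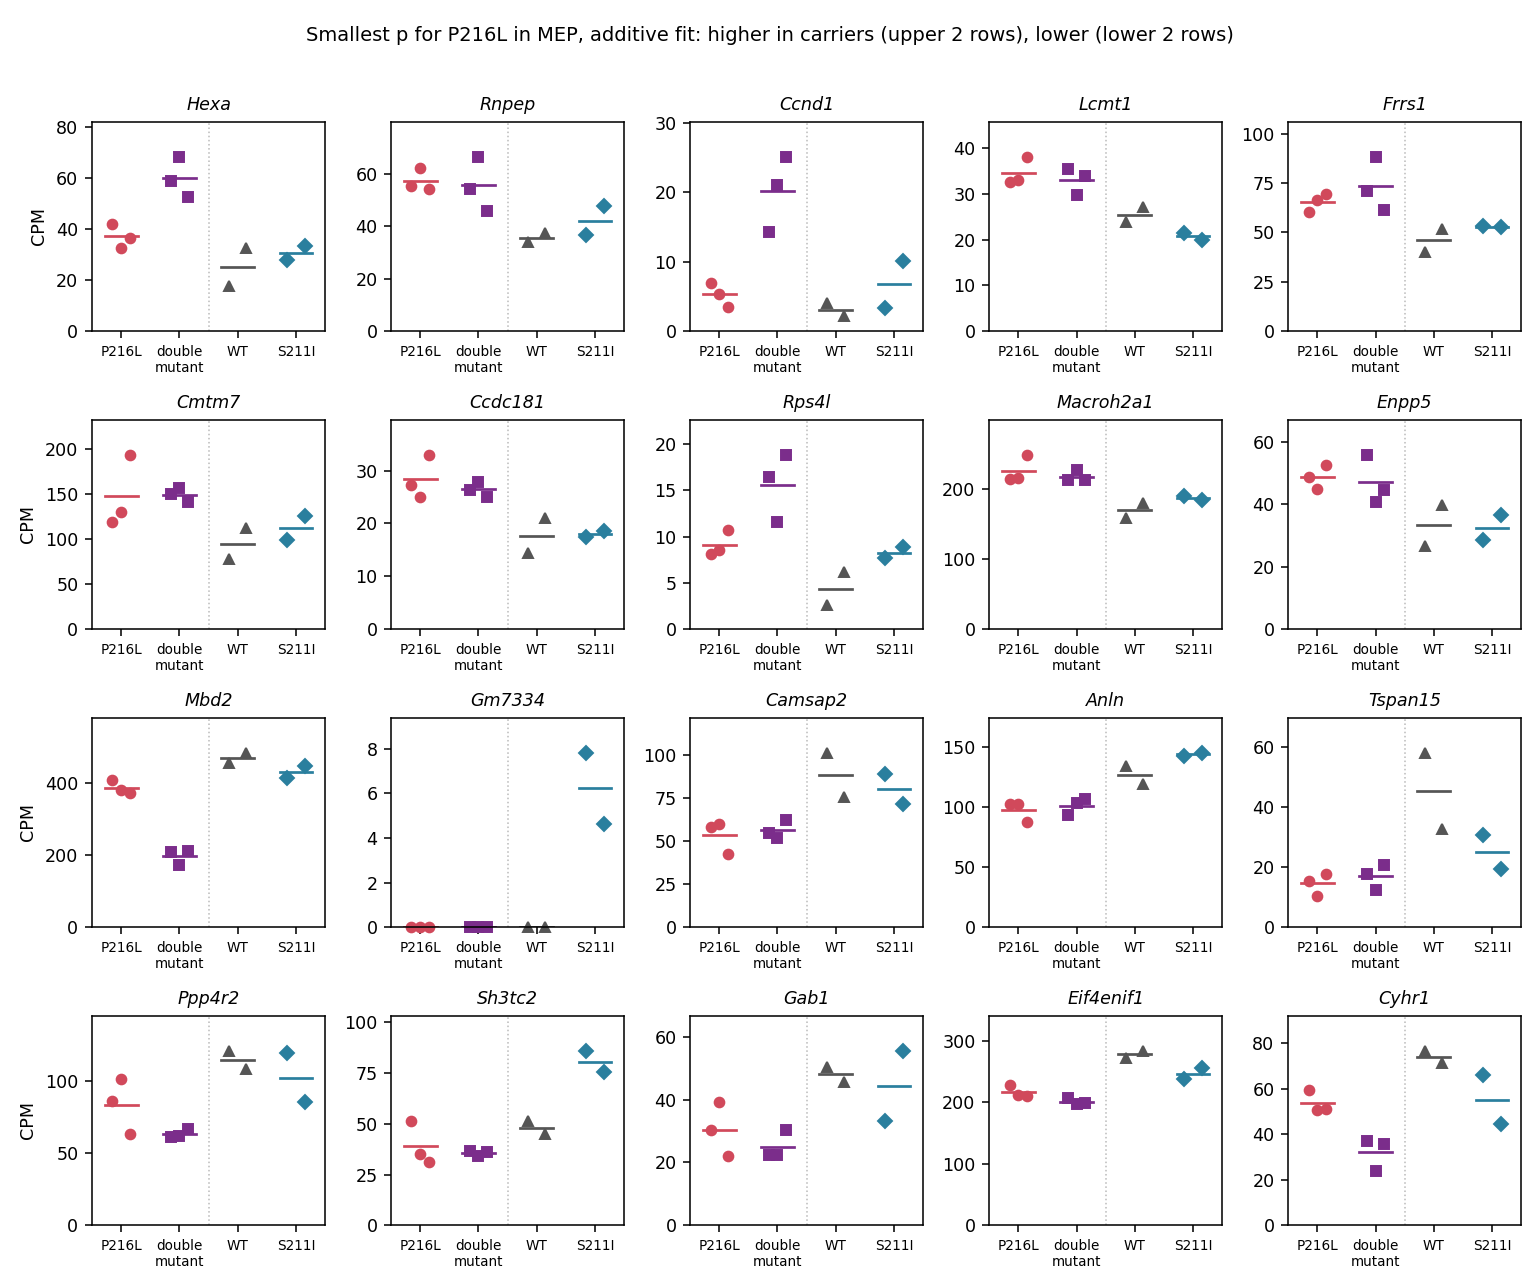
CPM (linear axis from 0) of the 20 genes named by smallest p, 1 point per library, in P216L and double-mutant MEP left of the dotted line and WT and S211I MEP right of it; horizontal lines are group means. The upper 2 rows hold genes higher in carriers and the lower 2 rows genes lower in carriers; Mbd2, Camsap2, Anln and Eif4enif1 are below every non-carrier in all 6 carriers, and none of the 20 reached an adjusted p under 0.05.

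The promoters of the named genes were read for the ETS-type motif CCGGAAG, searched on both strands in windows from 250 bases before to 50 bases after annotated starts (RefSeq, GRCm38.p6), where 13 of the 20 named genes had a window. The motif was in 4 of these 13 genes (30.8%): Ccdc181, Frrs1, Lcmt1 and Eif4enif1. It was in 1991 of 8742 tested genes with a window (22.8%) and in 2683 of all 27025 genes with one (9.9%). Of tested genes with an unadjusted p under 0.05 it was in 40 of 236 higher in carriers (16.9%) and 64 of 347 lower in carriers (18.4%). A match describes the letters and is not a site of binding. The windows of Ccdc181 (chr1:164275348-164275647, plus strand) and Eif4enif1 (chr11:3202745-3203044, plus strand) are shown as 1 gene from each side, chosen after their values were seen. Ccdc181 holds 2 matches, and Lcmt1 and Frrs1, which also lay higher in carriers without overlap, hold 1 match each. Of the other genes higher without overlap, Macroh2a1 holds no match and Enpp5 had no window. Frrs1, Lcmt1 and Eif4enif1 each also have a window without a match. Capitals mark the motif on either strand.
Ccdc181 promoter: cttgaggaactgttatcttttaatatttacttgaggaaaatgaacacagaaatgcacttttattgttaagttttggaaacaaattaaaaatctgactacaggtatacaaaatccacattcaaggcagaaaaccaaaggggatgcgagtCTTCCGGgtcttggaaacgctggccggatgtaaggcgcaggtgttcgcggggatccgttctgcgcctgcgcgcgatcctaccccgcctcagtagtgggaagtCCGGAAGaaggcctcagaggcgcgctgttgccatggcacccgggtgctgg
Eif4enif1 promoter: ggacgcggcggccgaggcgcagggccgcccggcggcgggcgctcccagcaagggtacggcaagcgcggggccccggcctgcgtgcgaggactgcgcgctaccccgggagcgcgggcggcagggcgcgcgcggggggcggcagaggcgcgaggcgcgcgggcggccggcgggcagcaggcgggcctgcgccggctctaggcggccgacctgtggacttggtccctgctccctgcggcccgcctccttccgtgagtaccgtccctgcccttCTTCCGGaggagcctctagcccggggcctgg

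The P216L effect was then read apart in each S211I background. In the absence of S211I (P216L against WT MEP), edgeR called 0 of 10773 genes (0% of genes), with 552 at an unadjusted p under 0.05 (5.12%), 333 higher in P216L MEP (3.09%) and 219 lower (2.03%). DESeq2 called 3 and voom 0, and edgeR called 7 without WT replicate 3. In its presence (double mutant against S211I MEP), 15 genes fell and none rose at an adjusted p under 0.05 (0.139% of genes on the lower side, 0% on the higher), with 821 at an unadjusted p under 0.05 (7.62%), 347 higher in the double mutant (3.22%) and 474 lower (4.4%). Each of these 15 was lower in all 3 double-mutant libraries than in both S211I libraries, as were 14.8% of all genes tested. Of the 15, 12 were lower there than in all 7 other MEP libraries, as were 0.882% of all genes; Sh3tc2, Tada2b and Gm7334 were the exceptions. The 15 were picked by p in this contrast, so these shares follow from the choice. Gm7334 passed the filter on low counts through the S211I pair alone. The same pair makes its call, so the call carries no weight of its own. Without Gm7334, 14 genes fell. The count moved with the libraries kept: it was 4 without double-mutant replicate 1, double-mutant replicate 2 or S211I replicate 1, 6 without S211I replicate 2, 8 without double-mutant replicate 3, and 25 without P216L replicate 3. DESeq2 called 28 in this contrast (5 higher, 23 lower) and voom 33 (4 higher, 29 lower). A fit of only the compared groups called 4 higher and 24 lower, and edgeR without the low-count filter 13 higher and 38 lower. The lack of genes on the higher side thus held in the reported fit and not in every fit.

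Qk was the gene whose P216L effect differed between the backgrounds. Qk encodes quaking, an RNA-binding protein that controls splicing and RNA stability, and stood at 157, 149.6 and 102 CPM in P216L MEP, against 123 and 134 CPM in WT. In the double mutant it stood at 65.7, 64.3 and 63.9 CPM, against 181 and 169.8 CPM in S211I MEP. The double-mutant libraries lay far below all others, while P216L and WT MEP overlapped. The log2 fold change was -1.44 ± 0.16 with S211I (SE; edgeR adjusted p = 7e-05) and 0.09 ± 0.16 without it (adjusted p = 0.99). The difference of these effects was -1.54 ± 0.23 (adjusted p = 0.013), with a 95% interval of -2.01 to -1.06, and it was the only gene of 10773 called for the difference (0.00928% of genes, lower with S211I), beside 608 genes at an unadjusted p under 0.05 (5.64%), 237 with a positive difference (2.2%) and 371 with a negative one (3.44%). DESeq2 called 12 genes for the difference and voom 7, and edgeR called 13 without WT replicate 3, 7 without P216L replicate 3 and 2 without P216L replicate 2. The edgeR call was lost in the fit with replicate number as a block (adjusted p = 0.056) and without double-mutant replicate 2 or 3, P216L replicate 1, either S211I library or WT replicate 1 (adjusted p = 0.057 to 0.24), while the value ran from -1.58 to -1.43 in those fits.

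The genes that fell with S211I included Mbd2, at -1.12 ± 0.12 (SE; edgeR adjusted p = 5.9e-05), whose log2 fold change without S211I was -0.28 ± 0.12 (adjusted p = 0.98). The value without S211I had a 95% interval of -0.53 to -0.04 and an edgeR unadjusted p of 0.026. In that contrast 2.03% of all genes lay lower at an unadjusted p under 0.05. Cul3, the scaffold of a family of ubiquitin ligases, stood at 77.5, 77.8 and 79.2 CPM in the double mutant, against 179 and 168 CPM in S211I MEP. Without S211I it stood at 188, 153 and 137 CPM in P216L MEP, against 141 and 179.9 CPM in WT. The double-mutant libraries were alike and below every other MEP library, and the log2 fold changes were -1.15 ± 0.15 with S211I (adjusted p = 0.00057) and -0.01 ± 0.15 without it. Ybx3, a cold-shock domain protein that binds RNA and DNA, stood at 965, 739 and 804 CPM in the double mutant, against 1508 and 1457 CPM in S211I MEP. It stood at 1614, 1486 and 1441 CPM in P216L MEP, against 1584 and 1505 CPM in WT, where the groups overlapped. Its log2 fold changes were -0.83 ± 0.11 with S211I (adjusted p = 0.0011) and -0.03 ± 0.11 without it. Smad4, the shared mediator of TGF-beta and BMP signals, stood at 18.7, 19.1 and 16.9 CPM in the double mutant, against 49.5 and 40.7 CPM in S211I MEP. It stood at 33.5, 38.0 and 29.4 CPM in P216L MEP, against 44.4 and 34.2 CPM in WT. Its log2 fold change was -1.30 ± 0.21 with S211I (adjusted p = 0.0081) and -0.21 ± 0.21 without it.

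The remaining genes that fell with S211I were the ubiquitin ligase gene Znrf2, Sh3tc2, the chromatin genes Brd1, Tada2b and Sirt1, the phosphatase 2A catalytic subunit gene Ppp2cb, the splicing factor gene Khdrbs3, the endoplasmic reticulum turnover receptor gene Retreg1, the transcription factor gene Nfix, and Gm7334. Leaving out Gm7334, which is at 0 in the double mutant, the log2 fold changes of the 14 ran from -2.43 (Khdrbs3) to -0.83 (Ybx3) with S211I. Without S211I the same 14 genes ran from -0.28 to 0.26, with adjusted p of 0.98 or more. For 13 of these 14 the difference between backgrounds did not pass the test: its adjusted p was 0.14 for Cul3, 0.22 for Mbd2 and Ybx3, and 0.26 or more for the rest. In the additive fit the 14 had log2 fold changes of -1.18 to -0.44. Of them 13 had an unadjusted p under 0.05, as did 4.03% of all genes on the lower side. The additive fit uses the libraries by which the 14 were picked, so these values follow from the choice. The contrasts with and without S211I share no library, though the spread was estimated over all 4 genotypes.

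**Figure D2:**
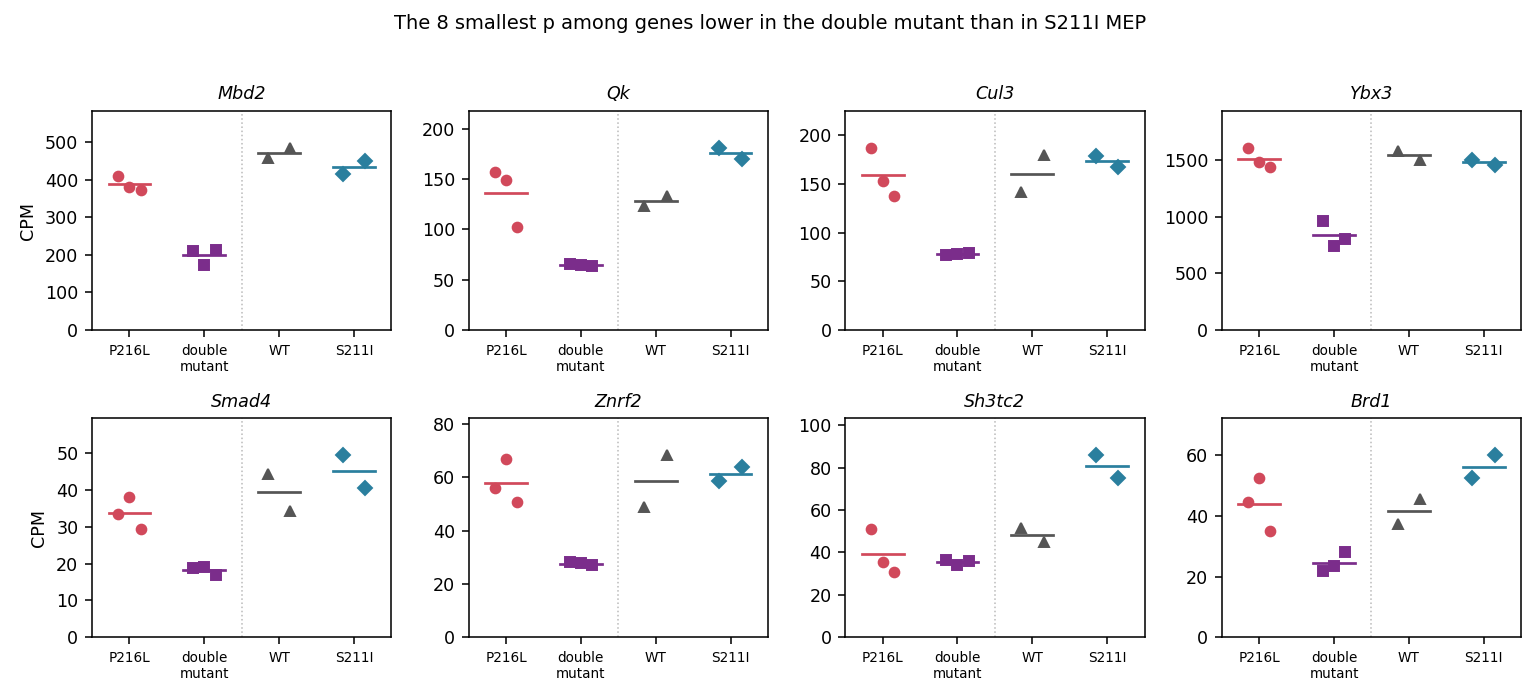
CPM (linear axis from 0) of the 8 genes with the smallest p among those lower in double-mutant than in S211I MEP, 1 point per library, carriers left of the dotted line; horizontal lines are group means. The double-mutant libraries are the lowest in 7 of the 8 panels, and in the Sh3tc2 panel they overlap P216L MEP.

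Over all 10773 genes, the log2 fold changes of P216L in the 2 backgrounds had a Pearson correlation of -0.013 and a Spearman correlation of 0.039, and 52.8% had the same sign. Among the 4549 genes with a mean of at least 50 CPM the Pearson correlation was 0.178. These are descriptions across genes, which are not independent replicates. Tspan15 lay at -1.65 ± 0.30 without S211I (SE; edgeR adjusted p = 0.26) and -0.57 ± 0.30 with it (adjusted p = 0.68). Camsap2, Frrs1, Ccdc181, Enpp5 and Eif4enif1 had values of like size in both backgrounds: Frrs1 lay at 0.49 without S211I and 0.47 with it, and Enpp5 at 0.53 in each. They were named by smallest p in the additive fit, which favours like effects in both backgrounds, so their likeness follows in part from the choice.

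**Figure D3:**
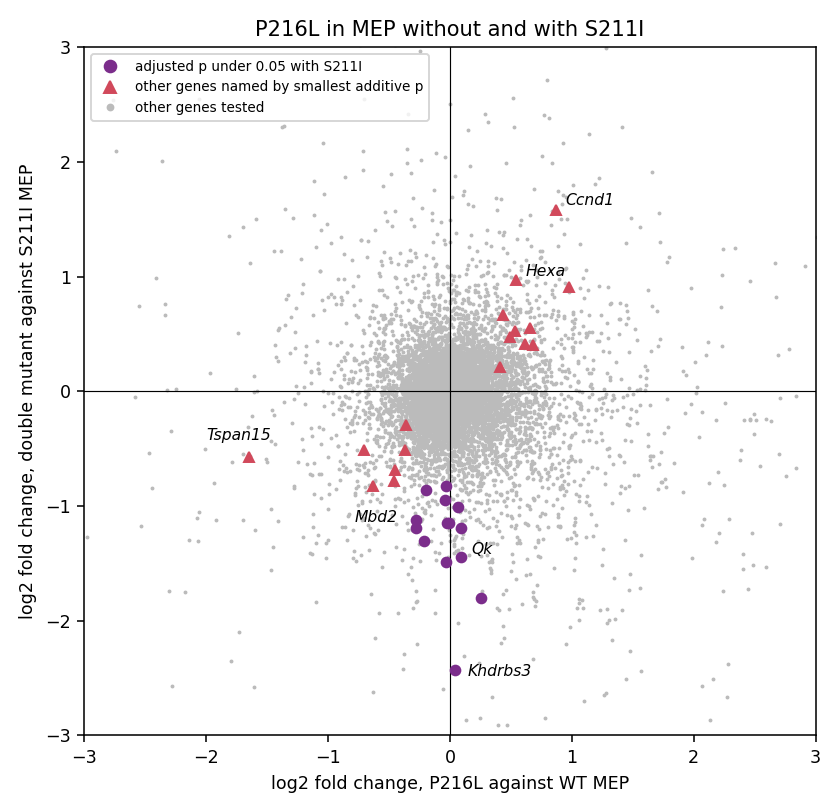
Log2 fold change of P216L against WT MEP (horizontal) and of the double mutant against S211I MEP (vertical), 1 point per gene; 84 of 10773 genes lie outside the axes, which end at 3. Genes called with S211I (purple circles, without Gm7334) lie between -0.28 (Mbd2) and 0.26 on the horizontal axis and below -0.8 on the vertical. The other genes named by smallest additive p (red triangles) lie on the same side of 0 on both axes. Both sets were picked by p in these libraries, so their places follow in part from the choice.

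The pathway lists were read as counts beside all genes tested, of which 51.5% lay above 0 in the additive fit with a median of 0.01. None of the 33 lists had a member at an adjusted p under 0.05. Of the 18 described, the erythroid and megakaryocyte lists come first. Of 16 erythroid transcription factor genes 7 lay above 0, with a median log2 fold change of -0.03. Gata1 lay at 0.04 ± 0.08 and Klf1 at -0.04 ± 0.08, and 1 member, Zfpm1, had an unadjusted p under 0.05 (4.03% of all genes did so on the lower side). Zfpm1 encodes FOG1, the partner of Gata1, and stood at 103, 125 and 55.9 CPM in P216L MEP and 64.0, 61.3 and 63.1 CPM in the double mutant, against 96.1 and 109 CPM in WT and 118 and 130.0 CPM in S211I MEP. P216L replicate 3 lay with the double-mutant libraries and the other P216L libraries with the non-carriers. The log2 fold change was -0.55 ± 0.20 (SE; edgeR adjusted p = 0.70).

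Of 25 erythroid surface, globin and enzyme genes tested, 5 lay above 0, with a list median of -0.13 (-0.18 to -0.07 over 18 alternative fits). At an unadjusted p under 0.05 there were 6, all on the lower side (4.03% of all genes did so on that side). Cldn13, an erythroblast claudin of the mouse, averaged 220.4 ± 36.1 CPM in carriers and 273 ± 33.4 CPM in non-carriers (SD, n = 6 and n = 4), a log2 fold change of -0.31 ± 0.11. Ermap, a red cell membrane protein, averaged 746 ± 130.2 CPM in carriers and 899.6 ± 77.1 CPM in non-carriers (SD, n = 6 and n = 4). The edgeR adjusted p was 0.69 for Cldn13 and 0.70 for Ermap, and both overlapped between groups. Of 21 heme synthesis and iron genes, 8 lay above 0, with a median of -0.07. Ireb2, the iron regulatory protein that blocks or stabilises iron transcripts, stood at 43.2, 53.3 and 30.3 CPM in P216L MEP and 38.6, 45.2 and 49.5 CPM in the double mutant, against 56.3 and 62.7 CPM in WT and 70.8 and 54.2 CPM in S211I MEP. Its groups did not overlap, and the log2 fold change was -0.48 ± 0.15 (SE; edgeR adjusted p = 0.62).

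Of 18 megakaryocyte and platelet genes 8 lay above 0, with a median of -0.12; the median was 0.10 without S211I and -0.43 with it, and the additive median was -0.32 without WT replicate 1 and -0.25 without WT replicate 3. Itga2b, the platelet integrin alpha IIb, stood at 19.2, 11.7 and 14.9 CPM in P216L MEP and 9.97, 7.38 and 12.2 CPM in the double mutant, against 12.2 and 27.2 CPM in WT and 15.3 and 26.4 CPM in S211I MEP. The groups overlapped, with a log2 fold change of -0.73 ± 0.26 (SE; edgeR adjusted p = 0.67). Its partner Itgb3 reached 1.19 CPM at most in carriers and 5.77 CPM at most in non-carriers, and was at 0 in 2 carriers. Mmrn1, a platelet granule protein, was at 1.51 to 7.18 CPM in carriers, against 4.72 to 16.1 CPM in non-carriers. Of 15 platelet cytoskeleton genes 5 lay above 0, with a median of -0.06.

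Of 23 Epo and Jak-Stat signalling genes 8 lay above 0, with a median of -0.10. Grb2, the adaptor that links receptors to Ras, stood at 173, 173 and 163 CPM in P216L MEP and 174, 186 and 170.2 CPM in the double mutant, against 148 and 145 CPM in WT and 153 and 161 CPM in S211I MEP. Its groups did not overlap, and the log2 fold change was 0.19 ± 0.08 (SE; edgeR adjusted p = 0.70), while Sos1, the exchange factor it recruits, lay at -0.33 ± 0.16. Of 13 TGF-beta genes 6 lay above 0 (median -0.06, and -0.21 to 0.06 over the alternative fits), with Smad4 at -0.76 ± 0.19 in the additive fit (adjusted p = 0.51). The genes of the Etv6 pathway itself gave no member at an unadjusted p under 0.05: of 15 ETS family genes 7 lay above 0 (median -0.05, and -0.14 to 0.08 over the alternative fits), and of 16 co-repressor genes 7 lay above 0 (median -0.02, and -0.05 to 0.01). Hdac1, a histone deacetylase, lay at 0.09 ± 0.08 and Ncor1 at -0.07 ± 0.09. Of 24 nuclear export and import genes 11 lay above 0, with a median of -0.02. The importins Kpna2 and Kpna1 were the members with an unadjusted p under 0.05, at -0.21 ± 0.09 and -0.27 ± 0.12 (4.03% of all genes did so on the lower side).

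The lists of G2 and mitosis and of S phase had medians below 0, as did most lists: 9 of the 33 had a median above 0. Of 28 G2 and mitosis genes 5 lay above 0, with a median of -0.09 (-0.12 to -0.06 over the alternative fits). At an unadjusted p under 0.05 there were 6, all on the lower side (4.03% of all genes did so on that side). Besides Anln these included Mki67, the Ki-67 proliferation antigen, at 208 ± 15.5 CPM in carriers and 253 ± 22.5 CPM in non-carriers (SD, n = 6 and n = 4), and Top2a, topoisomerase II alpha, at 376 ± 45.7 CPM in carriers and 453 ± 38.0 CPM in non-carriers. Their log2 fold changes were -0.28 ± 0.09 and -0.27 ± 0.09 (SE; edgeR adjusted p = 0.62 and 0.67). Of 28 S phase and replication licensing genes 8 lay above 0, with a median of -0.06. Rrm2, a ribonucleotide reductase subunit, averaged 644 ± 54.4 CPM in carriers and 802 ± 107 CPM in non-carriers (SD, n = 6 and n = 4). The 11 D cyclin and CDK inhibitor genes tested had a median of -0.03 (-0.19 to 0.02 over the alternative fits), with -0.19 without double-mutant replicate 2 and -0.18 without WT replicate 3. On each side 2 had an unadjusted p under 0.05, beside 2.81% of all genes on the higher side and 4.03% on the lower. Those on the lower side were Rb1, the retinoblastoma protein that holds cells in G1, at -0.36 ± 0.13, and Ccnd3, the D cyclin of erythroid cells, at -0.23 ± 0.11. Those on the higher side were Ccnd1 and Cdk6, at 0.22 ± 0.10. Of 15 genes of the p53 list, which holds Trp53 besides its targets, 4 lay above 0. The list median was -0.21 (-0.26 to -0.14 over the alternative fits). Ccng1, a cyclin induced by p53, stood at 230.2, 228 and 209.6 CPM in P216L MEP and 222, 206 and 222 CPM in the double mutant, against 264 and 261 CPM in WT and 232 and 262 CPM in S211I MEP, and Trp53 itself lay at 0.18 ± 0.09. Carriers and non-carriers did not overlap for Ccng1, with a log2 fold change of -0.21 ± 0.08 (SE; edgeR adjusted p = 0.70). Sesn2, a sestrin induced by p53 under stress, averaged 7.86 ± 1.86 CPM in carriers and 14.9 ± 4.46 CPM in non-carriers (SD, n = 6 and n = 4), with a log2 fold change of -0.91 ± 0.25 (SE; edgeR adjusted p = 0.59).

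Genes of ribosomes and the respiratory chain lay mostly above 0. Of 36 cytosolic ribosomal protein genes 33 lay above 0 in the additive fit, with a median of 0.10 (0.03 to 0.18 over the alternative fits) and none at an unadjusted p under 0.05. The list was split by background: 10 of 36 lay above 0 without S211I (median -0.05), where 51.3% of all genes did, and 35 of 36 with it (median 0.25), where 50.4% of all genes did. The additive median was 0.03 without double-mutant replicate 3, 0.06 without P216L replicate 3 and 0.18 without WT replicate 1. Those were the libraries with the highest summed levels of the list, at 25290, 25130 and 23520 CPM, while the other 7 MEP libraries lay at 18460 to 20740 CPM. P216L replicate 3 also had the highest sums of the oxidative phosphorylation list (18420 CPM) and of the neutrophil list (180 CPM). Their part in the result was not tested. Of 34 nuclear-encoded oxidative phosphorylation genes 32 lay above 0, with a median of 0.10 (0.05 to 0.14 over the alternative fits), 27 without S211I and 33 with it, and 3 had an unadjusted p under 0.05 on the higher side (2.81% of all genes did so). Cox8a, a subunit of cytochrome c oxidase, stood at 191, 201 and 229 CPM in P216L MEP and 204, 206 and 229.6 CPM in the double mutant, against 188 and 167 CPM in WT and 181 and 163 CPM in S211I MEP. All carriers lay above all non-carriers, with a log2 fold change of 0.27 ± 0.09 (SE; edgeR adjusted p = 0.66). Genes of a list are not independent replicates, so the share above 0 carries no test.

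Of 19 interferon-stimulated genes 11 lay above 0 with a median of 0.07, which became -0.12 without P216L replicate 1. That library had the highest level of Rtp4, at 17.4 CPM, and of Irf7, at 40.5 CPM. Rtp4 averaged 9.58 ± 4.17 CPM in carriers and 5.07 ± 1.08 CPM in non-carriers (SD, n = 6 and n = 4; edgeR adjusted p = 0.65). All 11 neutrophil genes tested lay above 0, with a median of 1.10 (0.27 to 2.48 over the alternative fits), none at an unadjusted p under 0.05. Their levels were low: the list summed to 33.5 to 180 CPM in carriers and 3.28 to 111 CPM in non-carriers, and 11 of 18 listed genes passed the filter on low counts. S100a8 ranged from 0.299 to 11.3 CPM in carriers and from 0.177 to 4.82 CPM in non-carriers, and the list's median was 2.50 without S211I and -0.17 with it. Whether RNA of this kind has a part in the other values was not tested.

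**Figure D4:**
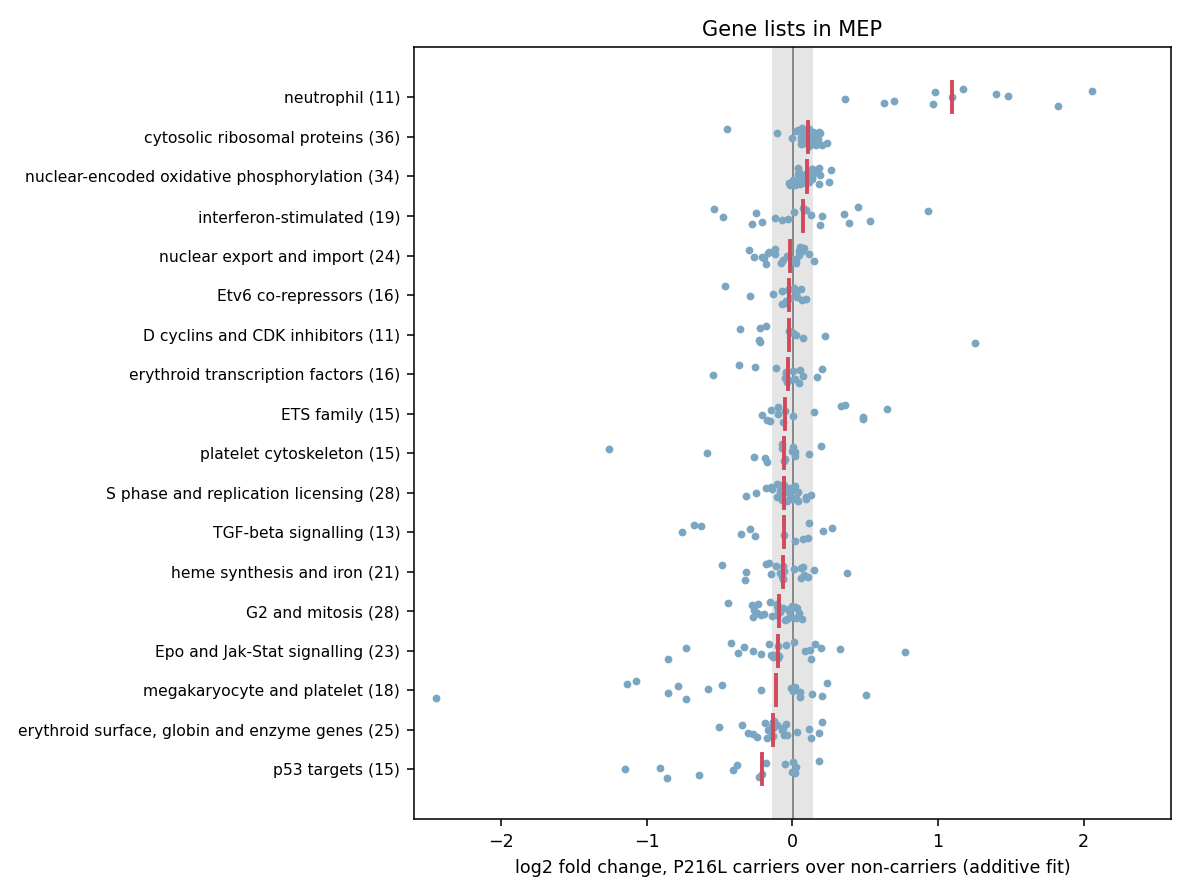
Log2 fold change of P216L carriers over non-carriers in the additive fit, 1 point per tested member of each of the 18 lists (number tested in parentheses); red bars are list medians, the grey line is the median of all 10773 genes and the grey band their middle 50%. The neutrophil median of 1.10 stands apart, though it was 2.50 without S211I and -0.17 with it, from genes at low levels. The ribosomal protein and oxidative phosphorylation medians are 0.10, and most other medians are at or below 0.

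Hematopoietic stem cells (HSC) of the same 4 genotypes gave no sharper reading. The 11 HSC libraries, 6 carriers and 5 non-carriers, held 151216 to 13154016 counts and had a biological coefficient of variation of 1.67. edgeR called 0 of 9471 genes for P216L (0%), with 256 at an unadjusted p under 0.05 (2.7%), 109 higher in carriers (1.15%) and 147 lower (1.55%), while DESeq2 called 33 and voom 76. The library labelled S211I replicate 2 held the most counts and stood apart, with 16603 genes detected against 3988 to 10280 in the other HSC libraries. Without that library 2 genes were called. The median SE was 1.89 on the log2 scale, against 0.158 in MEP. Of the named genes 68 were tested in HSC, with SE of 0.64 to 4.36, and Cldn13 was the only gene of the 68 with an unadjusted p under 0.05. Cldn13 lay at 4.07 ± 1.86 in HSC (SE; edgeR adjusted p = 1, unadjusted p = 0.031), with a 95% interval of 0.37 to 7.77, opposite in sign to its -0.31 in MEP. In HSC, Mbd2 lay at 0.50 ± 0.83 (SE), with a 95% interval of -1.14 to 2.15 that holds the MEP value, and Etv6 at 0.04 ± 0.98.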

How the data were processed

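RNA was measured in sorted MEP and HSC. The authors deposited estimated counts, 1 row per Entrez gene; Salmon, FastQC and GRCm39 are named in the submitters' processing notes, and no version is given in the sources used here. In MEP libraries 25.78 to 33.07% of the nonzero values are not whole, so values were rounded. Of 30519 genes, 30211 were named through RefSeq's GRCm38.p6 gene table, used for names alone; the other 308 held 0.044% of counts. Sequences are from GRCm38 and carry its coordinates.

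The 10 MEP libraries were fitted with edgeR 4.0.16 (under R 4.3.3 with limma 3.58.1), using TMM scaling (trimmed mean of M values), a minimum count of 10 and total of 15 (filterByExpr), robust quasi-likelihood fits with P216L and S211I as additive factors, and Benjamini-Hochberg adjustment at 0.05 over all genes tested. Contrasts within an S211I background and their difference came from a fit with 1 mean per genotype. HSC were fitted apart. SE is the absolute log2 fold change over the square root of the F statistic, and intervals are at 95%. CPM values of single genes use TMM-scaled library sizes, while summed levels of lists and markers and the bound for Gm7334 use plain library totals. None is scaled by gene length, so levels are compared between libraries and not between genes. The additive P216L fits were tried on simulated counts. The contrasts within an S211I background and their difference were not.

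Members and gene lists were chosen with earlier results of these data known. Named were Etv6, the 10 genes of smallest p in each direction, genes called for the difference between backgrounds, and the 3 members of smallest p of each of 18 described lists, of which 2 genes are not reported here; genes called with S211I, Gata1, Klf1 and Cdk6 were added after their values were seen. Of 677 list genes, 675 were found. Replicates of a group differed beyond sampling noise (chi-square per degree of freedom 4.631 to 15.2 over 8 pairs). Same-numbered libraries had correlations of -0.092 to 0.034 between their deviations from group means over 12 pairs, against -0.085 to 0.092 for libraries of different number. These values show no pairing by number, though with groups of 2 or 3 libraries a pairing could be missed. Tried besides were DESeq2 1.42.0, voom with quality weights, RLE scaling (relative log expression), all genes without a filter on low counts, a block for replicate number, a model without S211I, the mean of the effects in both backgrounds, a joint fit with HSC, a fit restricted to the compared groups, and the removal of each library in turn. Summed Y-linked transcripts were at 224 to 311 CPM in all MEP libraries. Intervals of log2 fold changes include the spread between libraries, while the bound for Gm7334 from the floor of 3 counts covers counting error only.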

Additional observations from a re-analysis of the deposited data

Results flagged for a closer look

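The P216L effect on Qk differed between the backgrounds by -1.54 on the log2 scale, by an interaction term in edgeR (adjusted p = 0.013), with 3 of 3 double-mutant libraries below both S211I libraries and P216L and WT libraries overlapping. The call was lost in 7 alternative fits: with replicate number as a block (adjusted p = 0.056) and in 6 fits without 1 library each (adjusted p = 0.057 to 0.24).

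For each named gene reported here, carriers (n = 6) and non-carriers (n = 4) were searched for a library far from its nearest neighbour by Dixon's 95% limits. Of 142 groups of values 11 were past the limit, where chance flags about 1 in 20. Among carriers, P216L replicate 3 was the highest for Ccdc181 (33.0 CPM, next 27.9), Tuba8 (5.05 CPM, next 2.02) and S100a9 (10.1 CPM, next 4.26). That library had the fewest counts of the 10. P216L replicate 1 was the highest carrier for Sh3tc2 (51.3 CPM, next 36.4), P216L replicate 2 for Mmrn1 (7.18 CPM, next 3.34) and double-mutant replicate 2 for Frrs1 (88.4 CPM, next 70.8). Among non-carriers, WT replicate 1 was the highest for Mmrn1 (16.1 CPM, next 4.84) and the lowest for Frrs1 (40.4 CPM, next 51.9). S211I replicate 1 was the lowest for Ccng1 (232 CPM, next 261), and S211I replicate 2 the highest for Mmp8 (1.78 CPM, next 0.186) and S100a9 (5.53 CPM, next 0.745).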

How the results depend on the processing

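Genes called moved with the tool and the filter. Without the low-count filter the additive P216L effect in MEP called 27 genes (0 in the reported fit), P216L without S211I 10 (0), P216L with S211I 51 (15) and the difference between backgrounds 32 (1). DESeq2 called 5, 3, 28 and 12 in the same order, and 33 in HSC (0). Voom called 33 with S211I, 7 for the difference and 76 in HSC. A fit of only the compared groups called 28 with S211I, and the mean of the effects in both backgrounds called 2 (Mbd2 and Qk). Replicate number as a block called 0 for the difference, 10 with S211I and 0 for the additive effect, without S211I and in HSC. RLE size factors called 0 for the additive effect and without S211I, 16 with S211I and 1 for the difference. The cause of these shifts was not tested.

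With each library left out in turn, calls ranged from 0 to 1 for the additive effect (1 without WT replicate 1), 0 to 7 without S211I (7 without WT replicate 3), 4 to 25 with S211I, 0 to 13 for the difference (13 without WT replicate 3, 7 without P216L replicate 3) and 0 to 2 in HSC. The sign turned for 2 genes, both without S211I replicate 1: Etv6, at 0.060 (-0.19 to 0.060 over libraries left out), and Tbl1x, at 0.014 (-0.22 to 0.014). Of 1329 values of single genes over these fits, 1299 kept direction and call, 7 lost the call of the Qk difference and 21 gained a call. HSC depth and spread limit that reading, with a typical 95% interval of 3.76 to either side.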

Other observations

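Gene groups outside the comparisons above gave these values in the additive P216L fit, where the median of all genes was 0.01 and 51.5% lay above 0. Of 19 glycolysis genes 11 lay above 0, with a median log2 fold change of 0.11 (0.04 without WT replicate 1), and the list summed to 6056 to 7102 CPM in carriers and 6001 to 6350 CPM in non-carriers. Of 24 Myc target and ribosome assembly genes 9 lay above 0 (median -0.03), with 6 above 0 without S211I and 16 with it. Of 16 MHC class I presentation genes 7 lay above 0 (median -0.03), with 12 above 0 without S211I and 4 with it. Of 19 cholesterol synthesis genes 7 lay above 0 (median -0.05). Of 20 unfolded protein and integrated stress response genes 10 lay above 0 (median below 0.01 in size). Of 14 stem and multipotent progenitor genes that passed the filter on low counts, of 23 listed, 4 lay above 0 (median -0.14, and -0.32 to -0.08 over the alternative fits). Of 10 B lymphoid genes 2 lay above 0, with a median of -0.41 (-0.93 to -0.12 over the alternative fits, and -0.17 without S211I and -0.95 with it), at a summed 13.7 to 55.9 CPM in carriers and 27.8 to 50.3 CPM in non-carriers.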
